A study of Mus musculus with 16 samples.

Results

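The comparison described here is between 2 ways of preparing RNA from mouse neural progenitor cells (NPCs), ribosomal RNA depletion and poly(A) enrichment, as measured by RNA-seq. It used 11 of the 16 libraries of the series, chosen by cell type and by the preparation given in their labels, and the column of all counted reads per gene. The 8 rRNA-depleted libraries came from 4 clones named Ch3, Ch5, Ch7 and Ch8, a pair of libraries from each clone, and the 3 poly(A) libraries from the clones F5, mG2 and mG6. All clones were NPC lines derived in culture from F1 hybrid embryonic stem cells of 129Sv x Cast/EiJ origin, expanded with EGF and FGF2 and picked as colonies, so each is 1 clone and carries no other allele or treatment. The 4 Ch clones, mG2 and mG6 are labelled male and F5 female. The other 5 libraries, from poly(A)-enriched RNA of astrocytes, are given only as a reference. No clone was prepared both ways, so the preparation, the set of clones, the sex of F5 and the depth cannot be told apart in any result below. Nothing in the labels says what separates the 2 libraries of a Ch clone, and they were summed, which left 4 clones against 3.

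Most messenger RNAs end in a poly(A) tail, and poly(A) enrichment captures RNA by that tail. Ribosomal RNA depletion removes rRNA by hybridization instead and keeps RNA with or without a tail. The main RNAs known to lack a tail are the replication-dependent histone mRNAs, which end in a stem-loop, the small nuclear RNAs (snRNAs) of the spliceosome, the small nucleolar RNAs (snoRNAs) that guide modification of rRNA, and other small RNAs of RNA polymerase III such as 7SK and the Y RNAs. snoRNAs are mostly cut from introns of host genes, and mitochondrial transcripts are processed from long precursors, with tRNAs cut out between the mRNAs and rRNAs.

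The libraries differed in depth and in composition. The Ch libraries held 20871111 to 30920672 counted reads, or 49230132 to 58283684 per clone, and the poly(A) libraries 69925081 to 105892734. The Ch clones had reads in 25685 to 26323 genes and the poly(A) clones in 23524 to 23998. The 10 genes with most reads took 19.2 to 26.9% of the reads of a Ch library and 4.74 to 5.75% of those of a poly(A) library. The Y-linked genes went against the labels of the Ch clones: Ddx3y and Eif2s3y had 8551 and 7376 reads in mG6, whereas each Ch library had at most 1 read of either gene and mG2 had 0 and 1. Uty, also Y-linked, had 9 to 34 reads in the Ch libraries, 3123 in mG2 and 3427 in mG6. The Y-linked gene Kdm5d was called higher in the Ch clones, but it had few reads in every NPC library. It had 3 to 9 reads in the Ch libraries, 2 in F5, 2 in mG2 and 3 in mG6. The Cast allele took 0.221 to 0.295% of the allele-specific X-linked reads in the Ch libraries, and Xist had at most 3 reads in each.

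The NPC label was checked against marker genes. Fabp7, Nes and Vim, which mark neural progenitors, were read at 802 to 2450, 709 to 1571 and 1114 to 1723 CPM (read counts relative to library size, scaled by TMM, the trimmed mean of M-values) across the 7 clones. Of 13 progenitor markers, Vim was called higher (0.42 on the log2 scale, a call lost without any 1 Ch clone or mG6) and 5 were lower in the Ch clones, among them Sox2 at 32.6 to 42.6 CPM against 103 to 168 CPM. Among the markers of other cell types, those of astrocytes summed to 455 to 581 CPM in the Ch clones and 184 to 288 CPM in the poly(A) clones, and those of fibroblasts to 9.61 to 16.9 CPM against 34.8 to 43.2 CPM. The astrocyte sum was mostly Aldoc, at 388 to 474 CPM against 66.6 to 189 CPM and called higher, whereas S100b was called lower, at 2.89 to 11.5 CPM against 11.04 to 58.2 CPM, and the median log2 difference of the 6 tested markers was 0.10. Those of neurons summed to 1086 to 1433 CPM against 912 to 1681 CPM. The neuron sum was mostly Mtap2 (Map2), at 1037 to 1344 CPM against 885 to 1651 CPM and not called. Of the 10 tested neuron markers, 2 were called higher (Elavl4 and Tubb3) and 2 lower (Neurod1 and Syt1). Oligodendrocyte markers summed to 47.2 to 66.8 CPM against 43.3 to 57.6 CPM, and those of ES cells to 4.28 to 7.94 CPM against 8.12 to 12.7 CPM. The ES cell marker Dppa5a was at 0 reads in all Ch clones. The part of these differences in the results below was not tested.

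The RNA classes took very different shares of the reads. Protein-coding genes held 63.4 to 68.3% of the reads of the Ch clones and 90.7 to 92.0% of those of the poly(A) clones. Identifiers without a name in the reference tables held 20.4 to 23.5% of the Ch reads and 2.80 to 3.43% of the poly(A) reads, a difference of 19.4 percentage points. The class of other small or ribosomal RNA, which is led by Y RNA, 7SK and the RNA of RNase MRP, held 6.45 to 8.40% of the Ch reads and 0.000335 to 0.000619% of the poly(A) reads. snoRNA genes held 0.472 to 0.599% against 0.00457 to 0.00573%, a ratio of the means of 106, and snRNA genes 0.325 to 0.555% against 0.000507 to 0.000745%, a ratio of 640.3. Long noncoding RNA genes held 0.797 to 1.19% against 0.383 to 0.405%, and most of it was Malat1 in the Ch clones. Mitochondrial mRNAs went the other way, at 0.409 to 0.526% against 3.42 to 3.69%, while the mitochondrial rRNAs and tRNAs held 1.04 to 1.45% against 0.0696 to 0.120%. Pseudogenes overlapped, with 1.18 to 1.35% against 1.31 to 1.75%.

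With 4 clones against 3, a two-sided exact permutation test cannot go below p = 0.0571, so no share could pass 0.05. The share of each class named above other than pseudogenes reached that smallest value (exact permutation p = 0.0571, and 0.0666 after Benjamini-Hochberg adjustment over the 14 classes and lists compared). Pseudogenes gave an exact permutation p of 0.171. The 5 astrocyte libraries, prepared with poly(A) enrichment but of another cell type, lay with the poly(A) NPC libraries for the classes without a tail, with 0.000507 to 0.00121% for other small or ribosomal RNA and 0.00264 to 0.00418% for snoRNA genes. Shares of reads depend on gene length and are not levels of single RNAs.

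**Figure D1:**
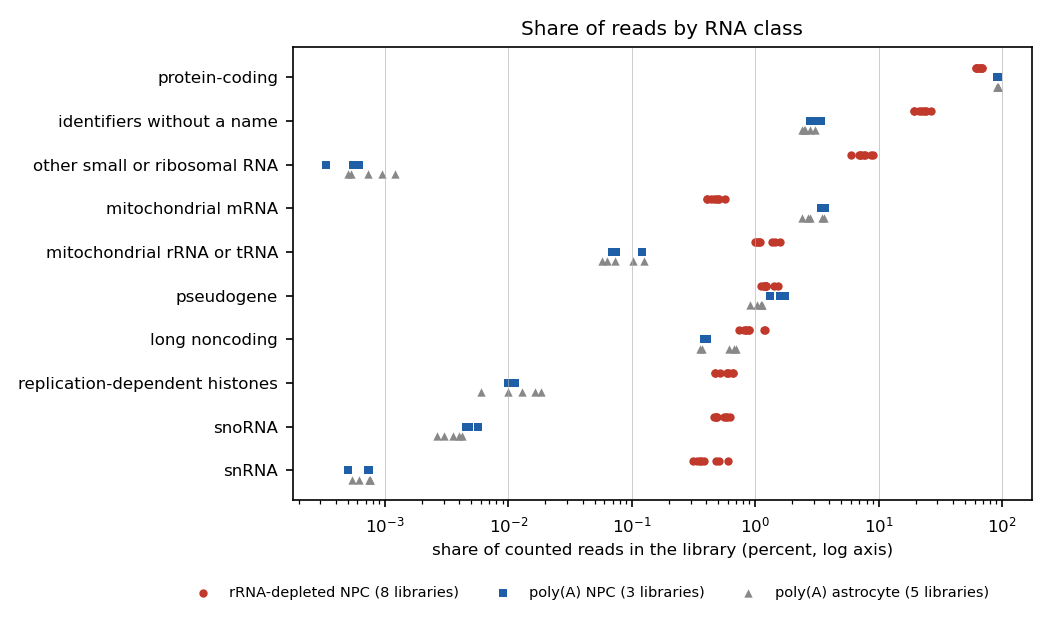
Share of counted reads in each RNA class (percent, log axis) for each of the 16 libraries, with rRNA-depleted NPC libraries as red circles, poly(A) NPC libraries as blue squares and poly(A) astrocyte libraries as grey triangles. Other small or ribosomal RNA, snRNA, snoRNA and replication-dependent histones lie far to the right in the rRNA-depleted libraries, and mitochondrial mRNA and protein-coding genes lie to the left.

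Gene by gene, 18397 genes passed the filter on low counts and were tested with edgeR's quasi-likelihood test with Benjamini-Hochberg adjustment over all of them. Of these, 4260 were called higher in the Ch clones (23.2% of the genes tested) and 4059 lower (22.1%), at an adjusted p under 0.05. These shares are the background against which the counts below are to be read. The split depends on the scaling: 51.2% of the calls were higher under TMM over all genes, 34.5% under library size alone and 62.5% with TMM factors from protein-coding genes. The median log2 difference over all genes was −0.01, −0.26 and 0.13 under these scalings, and log2 differences below are those of TMM over all genes. All differences are rRNA-depleted minus poly(A).

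The replication-dependent histone genes are those whose mRNAs end in a stem-loop that is bound by a protein of its own in place of a tail. The stem-loop has 6 base pairs and a loop of 4 bases, 16 bases in all. It was searched on the sense strand, with the histone stem-loop consensus, in the 3′ ends after the stop codon of the protein-coding transcripts of GENCODE vM1. Of 56 such histone genes in the files, 50 had an annotated 3′ end and 39 of them (78.0%) held the consensus, starting 22 to 59 bases after the stop codon with a median of 32. Of 18770 other protein-coding genes, 191 held it (1.02%). In the 39 genes it had 7 forms, and the most frequent one was found in 24 genes. The sequences below are shown because they are the part of the mRNA that stands where a tail would be: first those of 4 genes with very large differences, then examples of the rarer forms, and last those of 2 genes with small ones. The stem-loop is in capitals, with up to 5 bases on each side.
Hist1h1d: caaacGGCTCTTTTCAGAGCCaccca
Hist1h1e: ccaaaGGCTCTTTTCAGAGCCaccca
Hist1h4c: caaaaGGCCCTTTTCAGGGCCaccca
Hist1h4f: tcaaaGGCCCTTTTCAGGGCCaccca
Hist1h4a: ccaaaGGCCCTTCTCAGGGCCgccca
Hist1h4j: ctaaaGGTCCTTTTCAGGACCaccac
Hist1h4i: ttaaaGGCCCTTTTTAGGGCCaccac
Hist1h3c: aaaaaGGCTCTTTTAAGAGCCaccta
Hist2h2ac: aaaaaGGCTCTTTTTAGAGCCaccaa
Hist1h1c: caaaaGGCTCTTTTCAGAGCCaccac
Hist3h2a: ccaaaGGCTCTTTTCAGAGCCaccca
The H1 gene Hist1h1c and the H2A gene Hist3h2a thus carry the same stem-loop as Hist1h1d and Hist1h1e. The flanks shown for Hist3h2a are identical to those of Hist1h1e, and those of Hist1h1c and Hist1h1d differ from them in a few bases. A match to the consensus is a description of these letters only.

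The replication-dependent histone genes were read far more in the Ch clones than in the poly(A) clones, and nearly all that could be tested were called higher. Their reads summed to 5389, 5442, 7015 and 6751 CPM in Ch3, Ch5, Ch7 and Ch8 and to 90.3, 100.3 and 103.6 CPM in F5, mG2 and mG6, so the groups were far apart, with a ratio of the means of 62.7. Of the 56 genes, 53 were tested, 50 were called higher and 0 lower, and the median log2 difference was 8.30. Many of them passed the filter on the strength of the Ch clones, so that count is a description: of the 25 with at least 10 reads in every poly(A) clone, 22 were higher and the median log2 difference was 6.40.

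The linker histone gene Hist1h1d (H1f3, GRCm38.p6 chr13:23555032-23555807) had 542, 619, 756 and 702 CPM in Ch3, Ch5, Ch7 and Ch8 and 0.248, 0.552 and 0.207 CPM in F5, mG2 and mG6. Every Ch clone was far above every poly(A) clone, and the log2 difference was 10.95 ± 0.43 (SE, edgeR adjusted p = 1.19e-06). Hist1h1b, Hist1h1e and the H4 gene Hist1h4k (H4c12, chr13:21750145-21750553) had log2 differences of 11.51 ± 0.58, 10.03 ± 0.47 and 10.94 ± 0.28. Hist1h4k was read at 389 to 521 CPM in the Ch clones and 0.161 to 0.288 CPM in the poly(A) clones. The gene with the largest difference of the list was Hist1h4c (H4c3, chr13:23698084-23698458), with 93.7, 76.4, 119 and 103 CPM in the Ch clones and 3 reads in all poly(A) clones together. Its pooled ratio was 9282, with a 95% counting interval from 3176 to 45010. The core histone H4 genes Hist1h4f and Hist1h4d had log2 differences of 11.66 ± 0.28 and 11.47 ± 0.45.

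By histone type, all 12 tested H4 genes and all 5 tested H1 genes were higher, as were 7 of 7 H3, 13 of 14 H2A and 13 of 15 H2B genes. The median log2 difference was 10.65 for H4, 10.95 for H1, 8.82 for H3, 7.41 for H2A and 6.40 for H2B. Within each type the genes spread widely, and the smallest differences were found in genes with reads in the poly(A) libraries too. Hist1h1c (H1f2, chr13:23738807-23739531) was read at 308 to 411 CPM in the Ch clones and at 51.2, 64.9 and 66.8 CPM in F5, mG2 and mG6, a log2 difference of 2.58 ± 0.16. It alone held most of the histone reads of the poly(A) clones. Hist1h2bc, an H2B gene, had a log2 difference of 2.43 ± 0.26, and the H3 gene Hist2h3c1 one of 0.98 ± 0.23. The 3 tested genes that were not called were Hist2h2be at 3.42 to 4.15 CPM against 2.31 to 3.96 CPM, Hist2h2bb at 0.178 to 0.370 CPM against 0.207 to 0.363 CPM and Hist3h2a at 3.796 to 4.61 CPM against 2.46 to 3.48 CPM. They were chosen after their values were seen, as the exceptions of the list.

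Of the 37 tested histone genes with the consensus, 36 were higher, with a median log2 difference of 9.31 and a range from 0.55 to 12.96. Of the 11 tested ones with an annotated 3′ end in which the consensus was not found, 9 were higher, with a median of 7.64 and a range from 0.10 to 10.51. Outside the list, 153 tested protein-coding genes held the consensus after the stop codon, 18 of them were higher and their median log2 difference was −0.23. Histone genes of a type are near-identical in sequence, so how their reads were divided between copies is uncertain.

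**Figure D2:**
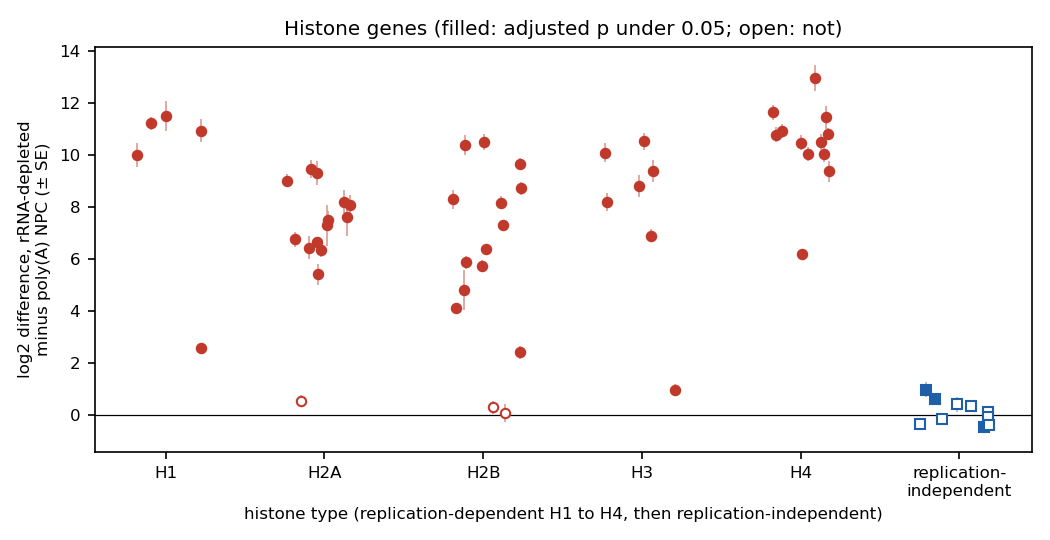
Log2 difference (rRNA-depleted minus poly(A) NPC clones, ± SE) of each tested histone gene, by type for the replication-dependent genes (red circles) and for the replication-independent genes (blue squares), filled where the adjusted p is under 0.05. The H4 genes lie between 6.19 and 12.96, and the replication-independent genes between −0.43 and 1.00.

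The replication-independent histone genes have mostly polyadenylated mRNAs, and 1 of the 10 held the stem-loop consensus. The 10 genes summed to 1642 to 2088 CPM in the Ch clones and 1600 to 2275 CPM in the poly(A) clones. These ranges overlapped. Of 10 tested, 2 were called higher, 1 was called lower and the median log2 difference was 0.03. Under library size alone 0 were higher and 2 lower, with a median of −0.23, and with TMM factors from protein-coding genes 2 were higher and 0 lower. H2afx, which encodes the H2A variant phosphorylated at DNA breaks, was read at 133, 148, 172 and 183 CPM in Ch3, Ch5, Ch7 and Ch8 and at 89.1, 105 and 44.9 CPM in F5, mG2 and mG6, a log2 difference of 1.00 ± 0.28 (edgeR adjusted p = 0.0209). That call was lost without Ch7 (0.96) or Ch8 (0.93). Cenpa, the centromeric H3 variant, had 0.64 ± 0.21, and H3f3a, which encodes H3.3, had −0.43 ± 0.15. The Cenpa call was lost without Ch5, Ch7, Ch8, mG2 or mG6 (0.45 to 0.72), and the H3f3a call without any 1 clone other than mG6 (−0.47 to −0.30). H2afz and H3f3b had 0.13 ± 0.24 and −0.31 ± 0.13 and were not called.

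Of 15 genes for the processing of histone mRNA ends, 2 were higher and 1 lower, with a median log2 difference of −0.16. Under library size alone 2 were higher and 8 lower, and with TMM factors from protein-coding genes 3 were higher and 0 lower. Sympk, a scaffold of the cleavage complex, was called at 0.64 ± 0.13. 1200014J11Rik (Ncbp3, a cap-binding protein) was called at 1.04 ± 0.28, with 143 CPM in Ch3 and 67.8 to 75.4 CPM in the other Ch clones, and lost its call without mG2 (1.00). Since histone mRNAs are made in S phase, cell cycle genes were set beside them. Of 25 S-phase genes, 9 were higher (36.0%, against 23.2% of all genes tested) and 1 lower, with a median of 0.30. Of 20 G2- and M-phase genes, 9 were higher (45.0%) and 1 lower, with a median of 0.43. These counts depend on the scaling: under library size alone 3 S-phase genes were higher and 2 lower (median 0.048), and 2 G2- and M-phase genes were higher and 1 lower (median 0.18). Mcm3 and Tk1 had log2 differences of 0.85 ± 0.19 and 0.86 ± 0.20, Plk1 and Aurkb of 0.90 ± 0.21 and 0.92 ± 0.20, while the licensing factor gene Cdt1 (−2.37 ± 0.28) and the proliferation marker Mki67 (−0.75 ± 0.12) fell. The part of the cell cycle genes in the histone difference was not tested.

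The small RNAs other than snoRNAs were grouped by their GENCODE names, a grouping chosen after the symbols first listed had matched no identifier. The levels here are sums over a family, in CPM, and most family members are copies or copy-like loci between which reads cannot be divided with certainty. Y RNAs, small RNAs bound by the Ro protein, summed to 42226, 32655, 50326 and 38150 CPM in Ch3, Ch5, Ch7 and Ch8, and to 0.154, 0.226 and 0.241 CPM in F5, mG2 and mG6. Only 3 of the 23 identifiers were tested. The one at 13626 to 21239 CPM in the Ch clones (ENSMUSG00000064945) had 0 reads in all poly(A) clones, and against a floor of 3 reads over that group it was at least 1670000-fold higher. The second, at 19026 to 29082 CPM, had 15 poly(A) reads, and the third (ENSMUSG00000065721), at 2.81 to 7.16 CPM, had 0.

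7SK, the RNA that holds the elongation factor P-TEFb inactive, summed to 13375 to 16090 CPM in the Ch clones and 1.39 to 2.67 CPM in the poly(A) clones. The RNA of RNase MRP, which cuts precursor rRNA, was read at 6324, 4994, 6100 and 6564 CPM in the Ch clones and had 5 reads in the poly(A) clones, a log2 difference of 18.23 ± 0.49. Both RNAs were thus abundant in every Ch library and all but missing from every poly(A) library. Among the snRNAs of the major spliceosome, U2 summed to 1774 to 2785 CPM against 0.218 to 0.363 CPM, U1 to 392.4 to 1096 CPM against 1.31 to 1.57 CPM and U6 to 223 to 684 CPM against 2.76 to 4.91 CPM. Those of the minor spliceosome, which removes a rare class of introns, were read too, with U12 at 434 to 701 CPM, U11 at 228 to 319 CPM and U6atac at 290 to 492 CPM in the Ch clones. U11 and U12 had 0 reads in all 3 poly(A) clones, and U6atac summed to 0.103 to 0.125 CPM there.

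Ch3 had the highest level of U1, U2, U6, U12 and U6atac among the Ch clones. Vault RNA, a component of a large cytoplasmic ribonucleoprotein particle, differed widely among the Ch clones, with 450 CPM in Ch3, 152 CPM in Ch5, 0.831 CPM in Ch7 and 163 CPM in Ch8. Its log2 difference was 12.83 ± 2.35. By contrast, U5 and U7 were hardly read in either preparation, with sums of at most 0.0446 CPM for U5 and 0.151 CPM for U7 in any Ch clone, and 5S rRNA summed to 1.31 to 1.91 CPM against 0.839 to 1.06 CPM. No family had more than 3 members with at least 10 reads in every poly(A) clone, so no count of called members is given.

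The genes annotated as snoRNAs or as the Cajal body RNAs of the same kind were called higher almost throughout. The 102 genes of the list summed to 3367, 2358, 2867 and 2886 CPM in Ch3, Ch5, Ch7 and Ch8 and to 23.4, 24.1 and 21.3 CPM in F5, mG2 and mG6. Of 56 tested, 53 were higher and 0 lower, against 23.2% and 22.1% of all genes tested, and of the 30 with at least 10 reads in every poly(A) clone, 28 were higher with a median log2 difference of 5.52. The 3 tested genes that were not called were Snord98, Snord72 and Snora34, named after their values were seen.

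Snord118 (GRCm38.p6 chr11:69073426-69073562), which encodes the U8 snoRNA needed for processing of precursor rRNA, was read at 633, 458, 608 and 592 CPM in the Ch clones and had 1 read in all poly(A) clones. Its pooled ratio was 161800, with a 95% counting interval from 29040 to 6391000. Snord13, the U13 snoRNA, had 226, 120, 183 and 173 CPM against 1 read. Both are genes with promoters of their own. Other snoRNAs are made from introns. Snord15a (chr7:99482785-99482932) was at 170 to 187 CPM against 0.0460 to 0.138 CPM, a log2 difference of 10.99 ± 0.29, and its host gene Rps3 at −0.001. Snora73b had 270 to 409 CPM against 0.942 to 1.32 CPM and a log2 difference of 8.24 ± 0.26, Snord17 had 10.00 ± 0.26 and the Cajal body RNA Scarna2 had 10.82 ± 0.28.

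Position in the reference annotation gave a host on the same strand to 136 of the tested snoRNA genes, in 112 host genes. The snoRNA was called higher in 125 of these pairs, with a median log2 difference of 6.15, and it lay above its host in all 136 pairs. Many of these snoRNA genes passed the filter through the Ch clones alone: 52 had at least 10 reads in every poly(A) clone, and 47 of those were higher, with a median of 4.91. Of the host genes, 12 were higher, 35 were lower and 65 were neither, and their median log2 difference was −0.11. Over all 242 tested genes that hold a snoRNA, 35 were higher and 74 lower (14.5% and 30.6%). These shares were 23.2% and 22.1% over all genes tested and 12.1% and 27.6% over protein-coding genes, which the host genes were near. For the 242, the counts were 53 and 51 with TMM factors from protein-coding genes and 15 and 107 under library size alone. Among the 136 pairs the largest snoRNA difference was that of snoU6-53 within Mgat5, at 12.49 with its host at 1.16, and Snord82 had 9.29 within Ncl (nucleolin), which fell by 0.61 on the log2 scale. Snord37 within the elongation factor gene Eef2 had 3.04 and Eef2 −0.18.

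**Figure D3:**
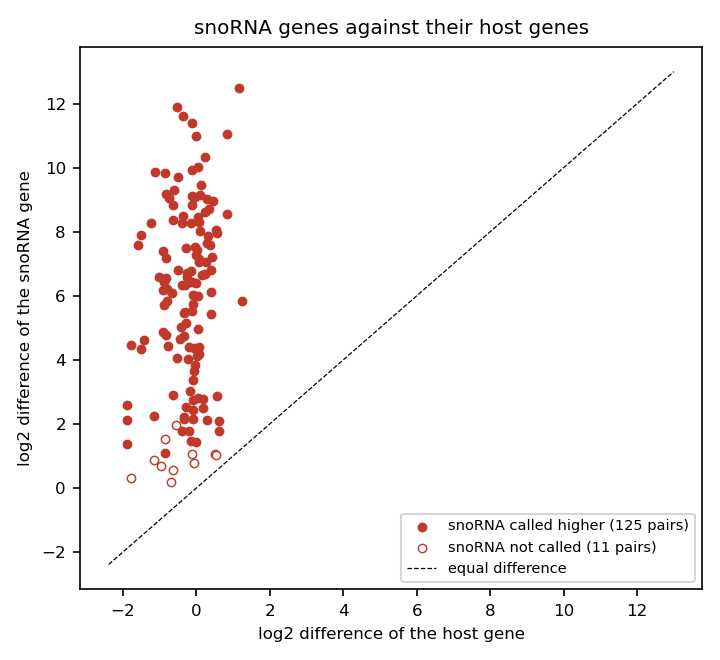
Log2 difference (rRNA-depleted minus poly(A) NPC clones) of 136 snoRNA genes against that of the host gene on the same strand, filled where the snoRNA was called higher, with the dashed line of equal differences. The 136 include snoRNA genes that passed the filter through the rRNA-depleted clones alone. All points lie above the line, with the host genes spread around their median of −0.11 and the snoRNA genes reaching 12.49.

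The long noncoding snoRNA host genes, whose spliced RNA is often short-lived in the cytoplasm, were described apart. Of 11 tested, 5 were higher and 0 lower, and the median log2 difference was 0.49. Gas5 (chr1:161034601-161038539) was read at 179, 186, 162 and 216 CPM in Ch3, Ch5, Ch7 and Ch8 and at 118, 105 and 73.4 CPM in F5, mG2 and mG6, so the groups did not overlap, and its log2 difference was 0.91 ± 0.18 (edgeR adjusted p = 0.00471). 1810032O08Rik (Snhg16) had 1.14 ± 0.18. 9430008C03Rik (Snhg17) and 2810008D09Rik (Snhg20) had 0.64 ± 0.14 and 0.85 ± 0.21, and both lost the call when libraries were scaled by size alone, at 0.39 and 0.60. Snhg9 stood apart, with 3.57 to 4.65 CPM against 0 to 0.0599 CPM and a log2 difference of 6.66 ± 0.69. Snhg9 had 11 poly(A) reads, and Snora78, at 75.9 to 106 CPM in the Ch clones, lies within its span. The part of Snora78 reads in the Snhg9 value was not tested. Of the 9 hosts with at least 10 reads in every poly(A) clone, 4 were higher. 1500012F01Rik (Zfas1) and Snhg12 were not called, with 0.16 ± 0.16 and 0.33 ± 0.19. Without F5, 8 of the hosts were called. Of 5 microRNA host genes, Mir17hg was higher (1.29 ± 0.19), 2210403K04Rik (Mir22hg) was lower (−1.65 ± 0.33) and 3 were neither.

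Long noncoding RNAs as a class did not move in 1 direction. Of 608 tested, 128 were higher (21.1%) and 86 lower (14.1%), near or below the shares over all genes, and the median log2 difference was 0.08, which became −0.16 under library size alone. Among the 499 with at least 10 reads in every poly(A) clone, 66 were higher, 86 were lower and the median was −0.11. Malat1 (chr19:5795690-5802672), a nuclear RNA whose end is a triple helix formed after cleavage and not a tail, was at 10826, 6043, 7476 and 6991 CPM in Ch3, Ch5, Ch7 and Ch8 and at 369, 1299 and 1452 CPM in F5, mG2 and mG6. The groups did not overlap, F5 was the lowest clone, and the log2 difference was 2.91 ± 0.49 (edgeR adjusted p = 0.00220). The part of its end in this difference was not tested.

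Among the nuclear long noncoding RNAs, 2 of 10 tested were higher and 3 lower. Neat1 was not called, at 4.61 to 15.6 CPM against 4.87 to 16.4 CPM and a log2 difference of 0.03 ± 0.52. Nespas (Gnasas1), an antisense RNA of the imprinted Gnas locus, was at 12.1 to 15.2 CPM against 0.379 to 1.14 CPM, a log2 difference of 4.08 ± 0.39. Tug1 (chr11:3639785-3648814) was lower, with 56.0, 58.0, 57.6 and 65.0 CPM against 177, 199 and 215 CPM and a log2 difference of −1.74 ± 0.11. 6720401G13Rik (Firre) was not called, with 39.9 to 51.1 CPM against 6.28 in F5 and 58.9 and 41.1 in mG2 and mG6. Xist, the RNA that coats the inactive X, was read at 882 CPM in the female clone F5, at 0.840 and 1.06 CPM in mG2 and mG6 and at 0.0194 to 0.0669 CPM in the Ch clones. Its log2 difference was −12.60 ± 3.01, and −4.32 without F5. 1700020I14Rik (Oip5os1, or Cyrano), a cytoplasmic RNA, was lower, at 89.1 to 96.0 CPM against 111, 204 and 271 CPM.

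By size of the difference, the other long noncoding genes called higher included Gm11280 and 4930443B20Rik. Gm11280 had 5.97 to 21.7 CPM against 0 poly(A) reads, at least 1046-fold higher, and 4930443B20Rik had 4.88 to 5.48 CPM against 3 poly(A) reads. Of the protein-coding genes other than histones, Fcgr3 had 197, 66.8, 103 and 83.0 CPM in the Ch clones against 0.00856 to 0.0251 CPM, and Gm10800 and Tmprss11a had 22.2 to 26.1 CPM and 4.22 to 14.2 CPM against 0 reads. Fcgr3 encodes an antibody receptor of immune cells, but whether its reads came from that gene's mRNA was not tested. Ch3 was the highest Ch clone for Fcgr3, Tmprss11a and Gm11280, as it was for U1 and U6. The genes of this paragraph were named after their values were seen, as the largest of their classes.

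The mitochondrial genome showed both directions. Its rRNAs rose: mt-Rnr2, the large subunit rRNA, was at 11763, 10440, 8945 and 8720 CPM in Ch3, Ch5, Ch7 and Ch8 and at 516, 915 and 545 CPM in F5, mG2 and mG6, a log2 difference of 3.92 ± 0.29 (edgeR adjusted p = 4.23e-05). mt-Rnr1, the small subunit rRNA, had 4.17 ± 0.23. Of the 24 mitochondrial rRNA and tRNA genes, 18 were tested, 16 were higher (13 under library size alone) and 0 lower. Of the 11 with at least 10 reads in every poly(A) clone, 9 were higher, with a median log2 difference of 2.76. The tRNA gene mt-Tm was at 1393, 328, 580 and 339 CPM against 0.276 to 0.777 CPM (10.53 ± 0.90), and mt-Th at 12.6 to 47.1 CPM against 0 poly(A) reads, at least 2330-fold higher. The 2 that were tested and not called were mt-Tq (0.16 ± 0.43) and mt-Tc (0.59 ± 0.30). Ch3 was the highest Ch clone for mt-Tm, mt-Tl1 and mt-Th.

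The mitochondrial mRNAs summed to 5282, 5419, 4501 and 5125 CPM in Ch3, Ch5, Ch7 and Ch8 and to 33471, 32077 and 32174 CPM in F5, mG2 and mG6, so they were 6.41 times lower in the Ch clones with no overlap. Of 13 mRNAs, 12 were lower and 0 higher, against 22.1% and 23.2% of all genes, and the median log2 difference was −3.72. The spread among them was wide. mt-Co1, of cytochrome oxidase, was at 2857 to 3279 CPM against 8550 to 9854 CPM, a log2 difference of −1.55 ± 0.15, and mt-Co3 had −2.69 ± 0.16. mt-Nd4 was at 76.6 to 94.1 CPM against 2181 to 2296 CPM (−4.72 ± 0.14), and mt-Atp8, of ATP synthase, was at 68.9, 94.0, 53.3 and 53.3 CPM against 1896, 2511 and 2271 CPM (−5.05 ± 0.25). mt-Nd4l, mt-Nd2 and mt-Atp6 had −4.61 ± 0.23, −4.12 ± 0.25 and −4.01 ± 0.19. All these are encoded on the same strand. The exception was mt-Nd6, the only mRNA of the opposite strand, at 82.2, 100.4, 62.0 and 71.0 CPM against 80.5, 94.0 and 80.0 CPM, whose log2 difference of −0.10 ± 0.17 was not called (edgeR adjusted p = 0.647).

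**Figure D4:**
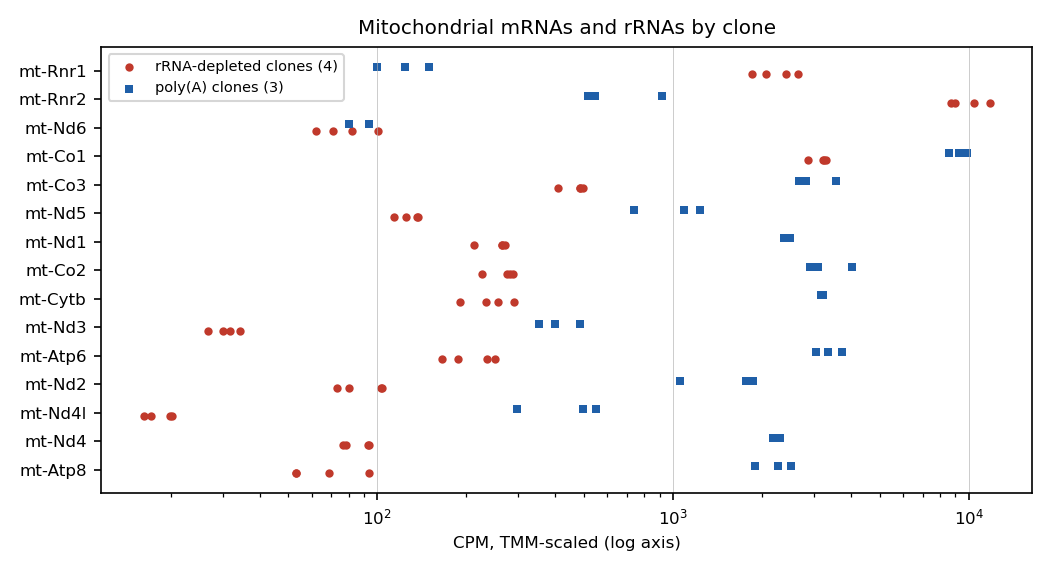
Level of each mitochondrial mRNA and rRNA (CPM, TMM-scaled, log axis) in the 4 rRNA-depleted clones (red circles) and the 3 poly(A) clones (blue squares), ordered by log2 difference. Both rRNAs are higher in the rRNA-depleted clones, 12 mRNAs are lower and mt-Nd6 overlaps.

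Nuclear genes of related function were described for comparison. Of 78 tested nuclear genes of the respiratory chain, 2 were higher and 32 lower with a median log2 difference of −0.38. Without Ch3 or without Ch7, 20 were lower. The number lower was 49 under library size alone and 21 with TMM factors from protein-coding genes. Over all genes tested 23.2% were higher and 22.1% lower, and over protein-coding genes 12.1% and 27.6%. Atp5k and Cox5a, subunits of ATP synthase and of cytochrome oxidase, were at 18.5 to 23.5 CPM against 57.1 to 119 CPM and at 29.1 to 40.4 CPM against 85.4 to 119 CPM. Atp5b, the most read member, did not pass the test (−0.10 ± 0.17). Of 80 tested genes of cytoplasmic ribosomal proteins, 2 were higher and 38 lower (2.5% and 47.5%) with a median of −0.47. Under library size alone 51 of them were lower, and with TMM factors from protein-coding genes 27. Rpl30 had 84.9, 96.6, 87.1 and 121 CPM in the Ch clones against 496.5, 448.5 and 356.8 CPM in the poly(A) clones, a log2 difference of −2.16 ± 0.17, and Rps4x and Rpl17 had −2.04 ± 0.32 and −1.88 ± 0.15. The most read members Rpl7 and Rpl3 had −0.01 ± 0.19 and −0.14 ± 0.17 and were not called, and the retrogene Gm9846 (Rps27rt) rose by 2.27 ± 0.28. Ribosomal protein genes have many processed pseudogenes, so the division of reads among copies is uncertain.

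The files count reads on exons and hold no direct measure of unspliced RNA. A partial view comes from genes that lie inside an intron of a host gene, since intron reads of the host fall on such a gene only when both are on the same strand. Pseudogenes nested on the strand of the host had a median log2 difference of 1.57 (118 tested, 76 higher), and those on the opposite strand 1.17 (142 tested, 82 higher). Long noncoding genes had 1.24 on the same strand (34 tested, 17 higher) and −0.15 on the opposite strand (32 tested, 6 higher), the latter turning to 0.04, 0.04 and 0.26 without Ch5, Ch7 and F5. Protein-coding genes had −0.13 and −0.06, with 58 and 115 tested. Many of these genes had few reads in the poly(A) clones. Among those with at least 10 reads in each, the medians were 0.79 and 0.47 for pseudogenes (66 and 99 genes) and 0.25 and −0.21 for long noncoding genes (20 and 24 genes). Among those with a mean of at least 1 CPM, the order of the pseudogene medians turned, to 0.78 on the same strand and 0.87 on the opposite strand (47 and 69 genes).

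The nested genes with the largest differences were small RNAs on both strands. On the same strand as the host these were CT025673.1 within Zfp949, 7SK within Celf2 (15.14 ± 0.25) and a U1 copy within Gm221, and on the opposite strand AC159378.1 within Prep, AC167419.1 within Gtf2ird1 and a U6 copy within Cdh8. Of the larger RNAs, the pseudogene Gm15464 within Carf was at 17.6 to 20.3 CPM against 0.0251 to 0.0428 CPM (9.01 ± 0.26), and the long noncoding genes B130006D01Rik within Zfp652 and Gm15903 within Gbas, both on the strand of their hosts, had 4.05 ± 0.43 and 3.98 ± 0.29. Over all pseudogenes, 591 of 1065 tested were higher and 101 lower, with a median log2 difference of 1.04, and 0.50 among the 768 with at least 10 reads in every poly(A) clone.

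Protein-coding genes were lower more often than higher, with 3687 and 1615 of 13344 tested and a median log2 difference of −0.18. The counts were 5548 lower and 802 higher under library size alone, and 2778 and 2334 with TMM factors from protein-coding genes. The difference fell with the length of genome that a gene spans. Genes of up to 3000 bp had a median of 0.07 (794 genes), which was −0.18 under library size alone and −0.024 to 0.23 with any clone left out (0.23 without F5 and −0.024 without mG6). Genes of 30000 to 100000 bp had −0.23 (3836 genes), and those over 300000 bp −0.40 (426 genes). The share of genes called higher went from 22.4% in the shortest bin to 6.57% in the longest, and the share called lower from 18.1% to 33.4% in genes of 100000 to 300000 bp and 28.9% in the longest. Without the replication-dependent histones, the shortest span bin had a median of 0.02 (747 genes), with 17.8% higher and 19.3% lower. By length of the exons, the bin of up to 500 bp had a median of 0.50 with these histones and −0.15 without them. Without them, the medians of all 6 exon-length bins lay between −0.15 and −0.19. Genes of 1 exon had a median of 0.12 without the histones (394 genes) and those of more exons from −0.09 to −0.21. Bins share their libraries, and these are descriptions across genes with no test.

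**Figure D5:**
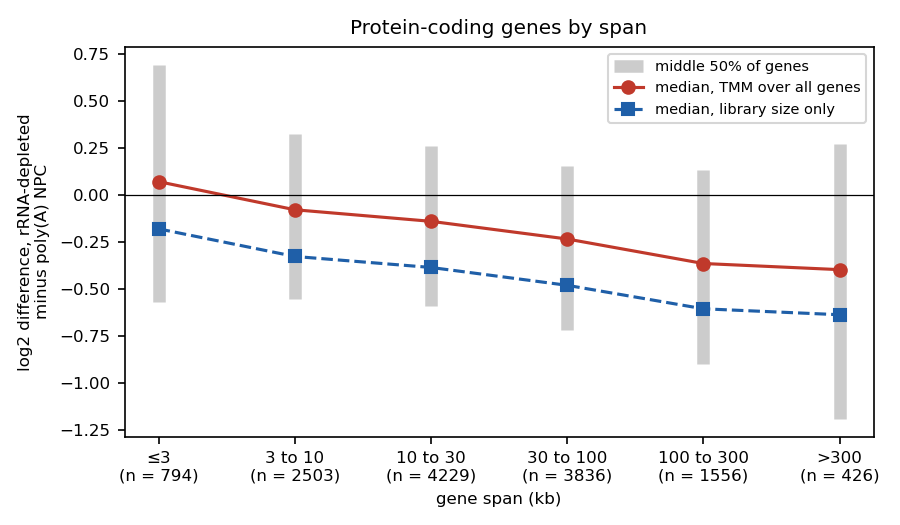
Median log2 difference (rRNA-depleted minus poly(A) NPC clones) of protein-coding genes by gene span in kb, under TMM over all genes (red) and library size alone (blue dashed), with the middle 50% of genes under TMM as grey bars. Both lines fall from the shortest to the longest bin, from 0.07 to −0.40 under TMM.

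The genes with the largest differences of all were mostly without a name. Of 17878 such identifiers 2959 were tested, and 1556 were higher and 171 lower. Many passed the filter through the Ch clones alone: of the 1649 with at least 10 reads in every poly(A) clone, 456 were higher and 171 lower, with a median log2 difference of 0.32. The 10 with most reads took 17.2 to 19.9% of the reads of the Ch clones. ENSMUSG00000099021 alone took 5.24 to 6.61% in the Ch clones and had 94 reads in the poly(A) clones, and ENSMUSG00000096205 took 3.26 to 3.85% against 26 reads. Another identifier had nearly the same counts as the latter in the 4 Ch clones, with ratios from 0.99983 to 1.002, so the division of reads between them is uncertain. Among the named genes, the small RNA AC156953.1 had 2478 to 3659 CPM and 0 poly(A) reads, at least 284900-fold higher. The genes that were most strongly lower after Xist were Vamp7-ps, at 0.928 to 1.57 CPM in the poly(A) clones and 0 reads in the Ch clones (at least 76.8-fold lower), Gm7919, Clic5, C87414, AA792892, Capn6 and Srpx2. Clic5, a chloride channel gene, was at 18.97, 51.9 and 446 CPM in F5, mG2 and mG6 and at 0.0417 to 2.43 CPM in the Ch clones, and its log2 difference of −7.27 ± 1.46 was −4.999 without mG6.

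The 2 libraries of each Ch clone gave the spread to set beside these values. Over genes with at least 20 reads, the SD of the log2 difference between them was 0.246 to 0.323, and it was 0.358 to 0.543 between libraries of different Ch clones. The authors state that biological replicates were merged, but their methods text does not say what separated the 2 libraries of a Ch clone. The 2 libraries were summed before testing, so p-values measure the spread between these clones only.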

How the data were processed

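RNA-seq of 11 NPC libraries was used, 8 rRNA-depleted and 3 poly(A)-enriched, with 5 astrocyte libraries for side values. The authors aligned read pairs with TopHat2 2.1.0 and Bowtie2 to GRCm38 masked at strain SNPs, assigned alleles with SNPsplit, and counted pairs on exons by strand with featureCounts 1.5.1. The deposited values are raw counts per gene, and the annotation version was not given in the sources used here. The deposited allelic fraction was not used, and allele-specific counts served for the check of X-linked reads only. How multi-mapped pairs were counted affects copies and small RNAs most.

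For each Ch clone the counts of both libraries were added, and genes were filtered with filterByExpr. The 4 clones were compared with 3 by edgeR 4.0.16 (R 4.3.3, TMM, quasi-likelihood test, Benjamini-Hochberg adjusted p under 0.05). On simulated data, the script recovered 13 of 100 genes changed by 1 on the log2 scale. Of 100 genes changed by 2 it recovered 57, with 2 false calls in each case. A gene that was not called may therefore still differ. Class shares were compared by two-sided exact permutation. A bound uses a floor of 3 reads over the group without reads, and 95% intervals of ratios cover counting error only. Of 50600 identifiers, 32722 had a symbol in the reference tables. Classes, strands, hosts and 3′ ends came from GENCODE vM1, of another build, and coordinates from RefSeq GRCm38.p6.

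Genes were named as the 4 most read and the 4 called members of largest difference of each list, the 10 called genes of largest difference in each direction with at least 50 reads in every clone of the higher group, and the 3 nested genes of largest difference on each strand. Members and lists were chosen with earlier results of these data known. The listed small RNA symbols matched no identifier, so families follow GENCODE names, a choice made after the data were seen. Alternatives were DESeq2 1.42.0, other scalings and filters, a fold threshold, 1 library per Ch clone, thinning, astrocytes in the fit, and leaving out each clone.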

Additional observations from a re-analysis of the deposited data

Results flagged for a closer look

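Within the 4 Ch clones, 152 values were checked for a clone that stood far from the other 3, relative to the range of the group. Chance alone sets about 1 in 20 such groups apart, and 11 stood apart here. Ch3 had the highest share of microRNA genes, 0.129% of reads against 0.0555 to 0.0604% in the other Ch clones. Ch3 also had 142.8 CPM of 1200014J11Rik (others 67.8 to 75.4), 8.003 CPM of Gm9846 (4.90 to 5.38), 211.1 CPM of Mki67 (257.0 to 263.6) and 0.0223 CPM of Itgbl1, which had 0 reads in the others. Ch5 had 2018 CPM of Eef2 (2290 to 2339). Ch7 had 409.6 CPM of mt-Co3 (483.8 to 495.9) and 86.0 CPM of the glutamate transporter gene Slc1a2 (32.1 to 38.9). Ch8 had 109.7 CPM of Cstf2 (120.7 to 121.7), 554 CPM of Ptprz1 (816 to 847) and 0.0625 CPM of Gm7919, which had 0 reads in the others. For Itgbl1 and Gm7919 any read at all in a single clone meets the rule, so the rate given above does not hold for these flags.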

How the results depend on the processing

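For 130 named genes, 2188 values under the alternatives gave 2039 times the same call, 120 lost calls, 29 gained calls and 0 changes of sign past the threshold. Of 409 summary values, 328 stayed within their limits. Where a value moved, the cause was not tested. With a mean of at least 1 CPM required, 2815 genes were higher, and with a log2 fold threshold of 1, 2222 were higher and 869 lower.

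Under library size alone, the median log2 difference was 8.06 for replication-dependent histones, 6.20 for snoRNA and scaRNA genes, 0.24 for snoRNA hosts (3 higher), −3.96 for mitochondrial mRNAs, −0.72 for ribosomal protein genes, −0.62 for respiratory chain genes (49 lower), −0.42 for protein-coding genes, −0.16 for long noncoding genes, which turned the sign, and 0.79 for pseudogenes. It was 0.97 and −0.40 for long noncoding genes nested on the same and the opposite strand, 1.32 and 0.93 for nested pseudogenes, −0.18 for the shortest and −0.64 for the longest coding genes. With TMM from protein-coding genes it was −3.57 for mitochondrial mRNAs, −0.027 for protein-coding, 0.23 for long noncoding and 1.19 for pseudogenes, and 21 respiratory chain genes were lower.

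Without a filter the medians were 6.02 for snoRNA and scaRNA genes, −0.20 for protein-coding, 0.34 for long noncoding, 1.88 for pseudogenes and 3.20 for snRNA genes. With a mean of 1 CPM they were 8.61 for histones, 6.86 for snoRNA and scaRNA genes, −0.095 for protein-coding and 0.70 for pseudogenes, 0.22 and −0.72 for nested long noncoding genes and 0.78 and 0.87 for nested pseudogenes on the same and opposite strand. With library 1 of each Ch clone they were 8.55 for histones, −3.54 for mitochondrial mRNAs, −0.15 for protein-coding and 0.83 for pseudogenes, and with library 2 they were 8.53 for histones, −0.16 for protein-coding and 0.024 for long noncoding. Protein-coding genes had −0.16 with DESeq2 and with thinning and −0.23 with astrocytes in the fit, which gave 0.021 for long noncoding genes. The fold threshold left 1 snoRNA host higher, 8 ribosomal protein genes lower and 4 respiratory chain genes lower. Without mitochondrial reads the protein-coding share differed by −28.6 percentage points.

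Leaving out each clone gave medians of 8.08 to 8.89 for histones, 6.20 to 6.58 for snoRNA and scaRNA genes, −0.19 to −0.16 for protein-coding, 0.048 to 0.16 for long noncoding and 0.98 to 1.21 for pseudogenes. The ranges were 1.08 to 1.61 and −0.19 to 0.26 for long noncoding genes nested on the same and opposite strand, the latter reversed to 0.04, 0.04 and 0.26 without Ch5, Ch7 and F5. They were 1.35 to 1.86 and 1.13 to 1.38 for nested pseudogenes and −0.024 to 0.23 for the shortest coding genes. snoRNA hosts called higher numbered 5 to 8 (8 without F5) and respiratory chain genes called lower 20 to 46. No paired analysis was possible because the groups compared share no replicate numbers. Depth limits the low genes: 3 reads over the poly(A) clones correspond to 0.0106 CPM.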
